A study of Homo sapiens with 8 samples.

Results

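PC3 is a human prostate cancer cell line derived from a bone metastasis, and the results below compare PC3 cells overexpressing miR-375 with PC3 control cells by poly(A) RNA-seq. The 4 libraries, 2 labelled control and 2 labelled with miR-375 overexpression, were chosen by their titles from the 8 libraries of the series. The other 4 are control and miR-375 libraries of LNCaP, an androgen-responsive prostate cancer line, which entered the fit for the spread between libraries and the test of whether a change differs between lines. PC3 was cultured in RPMI-1640 with 20% fetal bovine serum and LNCaP with 10%, so that line and serum share cannot be told apart. Neither the means nor the duration of overexpression is stated in the labels, nor what the control cells received. Whether the 2 libraries within a group are independent cultures is not stated either, so the p-values reflect only library-to-library spread, part of which may be technical.

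A microRNA is a short RNA that guides Argonaute proteins to messenger RNAs, mostly by pairing of its seed, the bases near its 5′ end, with sites in 3′ untranslated regions, and the paired messengers are destabilised or translated less. miR-375 is abundant in pancreatic islets and other neuroendocrine cells and is found at high levels in prostate cancers of luminal type. Genes reported as its targets include MTDH, a gene tied to invasion and drug resistance, YAP1, a transcriptional coactivator that Hippo signalling restrains, SEC23A, a subunit of the COPII vesicle coat, and QKI, a splicing regulator. The mature strand and 10 of its possible sites are shown first, because the 3′ UTR results below turn on them. In the microRNA the capitals mark the seed, bases 2 to 8, and in the sites they mark the letters that match it together with the A that follows the match. miR-375-3p is encoded at chr2:219001648-219001669 on the minus strand (RefSeq, GRCh38.p14).
miR-375-3p: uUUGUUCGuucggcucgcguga
YAP1 site: cagaaaaagatGAACAAAcgtccagcaaga
QKI site: ttgaaacaaatGAACAAAaagtagatactt
USP1 site: ttagcttctggGAACAAActtgtatcggtt
RBPJ site: gaatacaagttGAACAAActagaagacaca
C1QBP site: ctttggccagtGAACAAAtcctactctgaa
MTPN site: ttgtgttgcaaGAACAAAtggaataaactt
WBP1L site: ttactgtttacCGAACAAAtgtctgactgt
SERTAD2 site: aattttacatcCGAACAAAattttacatcc
CCDC50 site: aaggagaaaacCGAACAAAacagagacatt
OXTR site: ttgcctttaagCGAACAAAtgctggggtcc

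All 10 sites lie in the longest annotated 3′ UTR of their gene (GENCODE 29, GRCh38). Those of YAP1 (chr11:102230037-102230066), QKI (chr6:163571612-163571641), USP1 (chr1:62451189-62451218) and RBPJ (chr4:26431330-26431359) are on the plus strand. Those of C1QBP (chr17:5432948-5432977) and MTPN (chr7:135926773-135926802) are on the minus strand. These are the reported targets with the smallest adjusted p-values among genes that fell and have a site of this kind, which is called 7mer-A1 and matches the seed except base 8. The other 4, called 8mers, pair with the whole seed and are followed by an A. They are in WBP1L (chr10:102815154-102815183, plus), SERTAD2 (chr2:64634763-64634792, minus), CCDC50 (chr3:191396660-191396689, plus) and OXTR (chr3:8752489-8752518, minus). The 4 were taken from the genes with an 8mer in the same order of adjusted p-values, and the sites of some genes are not reported here. A match is a description of letters, and binding was not measured here.

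In these libraries WBP1L, a membrane protein gene, stood at 83.6 and 82.0 CPM in the controls and 24.8 and 23.2 CPM with miR-375, a log2 fold change of −1.78 ± 0.065 (SE). SERTAD2, a transcriptional coregulator gene, stood at 294 and 300.5 CPM in the controls and 119.9 and 129.7 CPM with miR-375 (log2 fold change −1.25). For these genes both miR-375 libraries lay below both control libraries. Among all 21066 genes tested, 66.8% had PC3 groups that did not overlap in either direction. The oxytocin receptor gene OXTR changed by −1.23 and CCDC50 by −0.73 on the same scale.

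Depth was even, with totals from 40245979 to 41890528 counts in PC3 and from 33973861 to 35689829 in LNCaP. Levels are given as CPM, a gene's counts per 1000000 counts of the library after TMM scaling, and a pair of values is the pair of libraries of a group. Changes are on the log2 scale, miR-375 relative to control, with SE, and "rose" and "fell" mean an adjusted p under 0.05 from edgeR's quasi-likelihood test, Benjamini-Hochberg adjusted over 21066 genes. The MIR375 gene had no counts in any library. At 3 counts, the limit that a count of 0 allows for counting error, the ceiling was at most 0.0745 CPM in PC3, and since mature microRNAs have no poly(A) tail, the value checks neither label. All 14 genes listed as marking PC3 were detected, among them the AP-1 gene FOSL1 (718 and 726 CPM in the controls) and the receptor kinase gene AXL (335 and 349). KLK2 and KLK3, the kallikrein genes that mark LNCaP, had 0 counts in the 4 PC3 libraries. The first principal component of the 4 libraries carried 64.2% of the variance and separated the groups, and the next components, with 19.0% and 16.8%, separated libraries within groups.

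A large share of the transcriptome differed between the PC3 groups. Of 21066 genes tested, 9059 were called (43.0%): 4679 rose (22.2%) and 4380 fell (20.8%). The changes were uneven in size. At least 2-fold, 1458 genes rose (6.92%) and 768 fell (3.65%), and at least 8-fold 279 rose and 74 fell. The excess of large rises lay among genes of low level. Among the 11654 genes with a mean of at least 5 CPM in a PC3 group, 483 rose and 468 fell by at least 2-fold. Ranked by mean level, the 5267 highest genes rose in 30.8% and fell in 41.9% of cases, against 8.2% and 2.5% of the 5267 lowest, so a share called is to be read against the level of the genes concerned. Of 15010 protein-coding genes, 26.7% rose and 27.0% fell. Long intergenic RNAs (13.9% and 6.2% of 1521) and antisense genes (12.3% and 4.0% of 1589) rose more often than they fell, and antisense calls are uncertain because the strand setting of the counting is not stated.

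**Figure D1:**
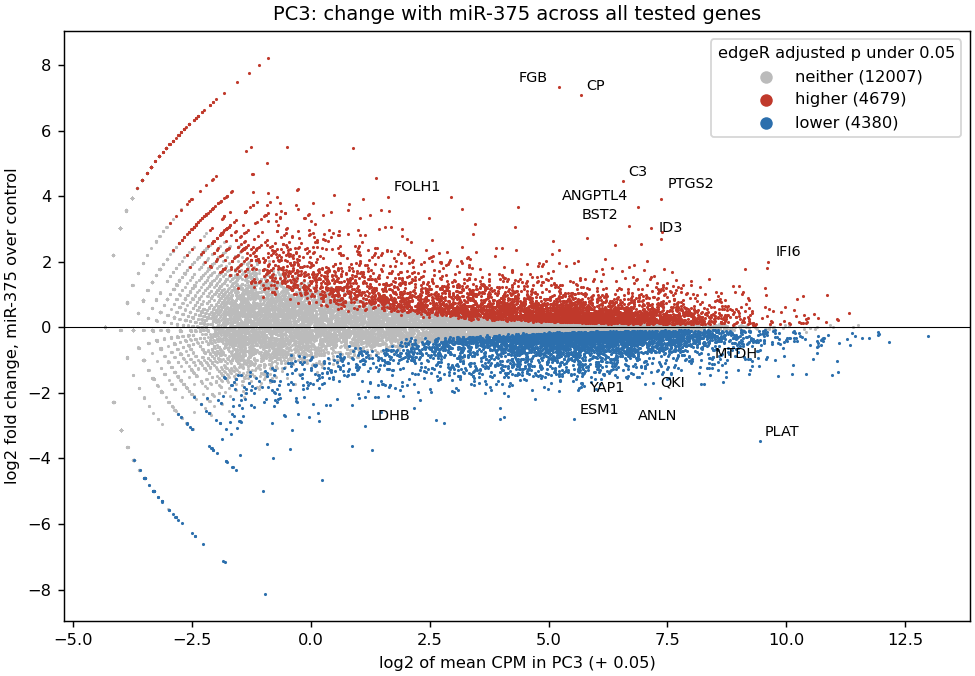
Log2 fold change of miR-375 over control in PC3 (vertical axis) against the log2 of the mean level over the 4 PC3 libraries in CPM plus 0.05 (horizontal axis), 1 point per tested gene. Red points are the 4679 genes that rose, blue the 4380 that fell and grey the 12007 others. Names mark some of the genes described in the text, among them PLAT at −3.47, CP at 7.08 and FGB at 7.32.

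Genes whose 3′ UTR holds a miR-375-3p seed match fell more often than genes without one. Among 14893 coding genes with an annotated 3′ UTR, 35.8% of the 2530 with any 8mer or 7mer fell and 23.0% rose. Among the 12363 without a match, 25.2% fell and 27.7% rose. The median log2 fold change over all genes, called or not, was −0.06 with a match and 0.03 without. Falls of at least 2-fold made up 5.4% of the genes with a match and 3.4% of those without. The 71 genes with an 8mer (CGAACAAA) held the highest share of falls of at least 2-fold, 11.3% (8 genes), against 5.25% of 2360 with only a 7mer-A1 (GAACAAA), 5.05% of 99 with a 7mer-m8 (CGAACAA) and 3.44% without a match. Among the 8 genes were WBP1L, SERTAD2, OXTR, MTDH, the centromere gene CENPO and BEND6, named because of that count. The 7mer-m8 genes, in which 27.3% fell and 28.3% rose, were close to the genes without a match. Genes with 1 match fell in 35.2% of cases, those with 2 in 38.2% and those with 3 or more in 38.1%. These shares are descriptions and were not tested.

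UTR length and base composition moved with these classes. The median 3′ UTR had 3050 bases and 38.6% GC in the 7mer-A1 class and 1083 bases and 44.4% GC without a match. Among genes with UTRs up to 763 bases, 37.2% of the 7mer-A1 class and 24.2% of those without a match fell. Between there and 2095 bases the shares were 40.5% and 26.5%, and above 2095 bases 34.4% and 25.0%. With genes split by UTR GC, 39.9% and 30.8% fell at the lowest GC, 35.0% and 26.5% in the middle, and 26.8% and 19.5% at the highest. For falls, the gap between the 7mer-A1 class and genes without a match was present at each length and at each GC level. Rises were fewer in the 7mer-A1 class at each length: 14.5% and 24.4% rose at the shortest, 18.7% and 27.1% in the middle, and 25.5% and 33.2% at the longest. They were also fewer at the lowest GC (21.0% and 23.6%) and middle GC (21.1% and 25.1%), but not at the highest (35.4% and 33.2%). The gap in falls did not hold for the 15 8mer genes of middle length, of which 20.0% fell. UTR length still differed within GC levels, with medians of 2380 and 805 bases at the highest GC. For the other strand of the hairpin, miR-375-5p, 7mer-m8 matches were found in 72 genes, of which 27.8% fell and 20.8% rose, and 7mer-A1 matches in 24 genes, of which 16.7% fell and 45.8% rose. Of the genes without a 5p match 27.0% fell and 26.9% rose.

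**Figure D2:**
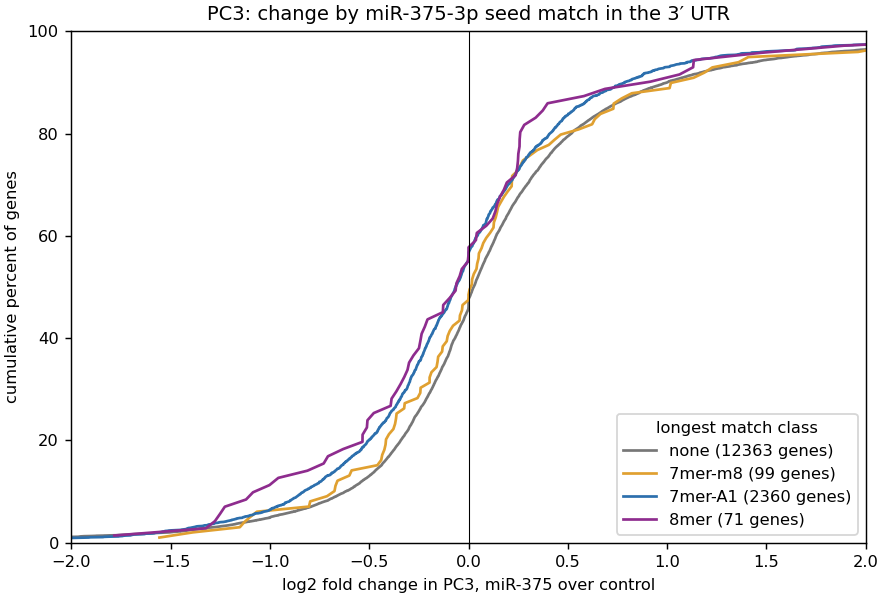
Cumulative percent of coding genes (vertical axis) by log2 fold change in PC3 (horizontal axis, shown from −2 to 2) for genes grouped by the longest miR-375-3p seed match in the 3′ UTR. The lines of the 7mer-A1 and 8mer genes lie left of the grey line of genes without a match over most of the falls, and the 7mer-m8 line runs close to it.

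Reported targets of miR-375 fell as a group. Of 35 genes listed from earlier literature 34 were tested: 23 fell, 2 rose and 9 were not called, with a median log2 fold change of −0.54 beside 0.02 over all genes tested. The list was written with results of these data known and is no independent evidence of its direction. QKI fell 3.25-fold, from 219 and 232 to 65.3 and 73.5 CPM. YAP1 fell 2.88-fold, from 176 and 167 to 60.7 and 58.1 CPM (log2 fold change −1.53 ± 0.049, edgeR adjusted p = 1.5e-24). CIP2A, an inhibitor of a tumour-suppressing phosphatase, fell from 54.0 and 54.1 to 21.0 and 19.0 CPM, and the deubiquitinase gene USP1 from 97.6 and 97.1 to 43.2 and 41.0 CPM. For each of these genes both miR-375 libraries were below both controls, where 66.8% of all genes tested were separated in either direction. MTDH went from 449.8 and 449 to 215 and 209 CPM (2.12-fold), SEC23A from 239 and 232 to 119 and 119 CPM (1.98-fold), and RBPJ, the DNA-binding partner of Notch, from 161 and 154 to 80.3 and 82.6 CPM (1.94-fold). The steepest fall was that of LDHB, a lactate dehydrogenase gene at low level in PC3, from 3.57 and 4.10 to 0.524 and 0.427 CPM (8.01-fold).

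Falls were also found for the matricellular gene CCN2 (log2 fold change −1.43), the caveolin gene CAV1 (−0.96), the condensin gene NCAPG2 (−0.94), C1QBP (−0.84), MTPN (−0.79), the kinase gene JAK2 (−0.77), the autophagy gene ATG7 (−0.67), the cystine transporter gene SLC7A11 (−0.63) and RASD1 (−0.58). The Wnt receptor gene FZD8 (−0.49), EIF4G3 (−0.49), TIMM8A (−0.38), AIFM1 (−0.33), GPHN (−0.20) and SP1 (−0.17) changed least among those that fell. Scaling by total counts ended the calls of SP1 (adjusted p = 0.13) and GPHN (adjusted p = 0.22). GPHN also lost its call without the second control library (adjusted p = 0.34) or the first miR-375 library (adjusted p = 0.35), all by edgeR. The collagenase gene MMP13 rose 8.34-fold, from 4.29 and 4.05 to 38.0 and 31.7 CPM, and the growth factor receptor gene IGF1R rose 1.45-fold, from 33.5 and 35.4 to 49.4 and 50.3 CPM. MMP13 has no seed match in its longest 3′ UTR and IGF1R has 2. Of the targets that fell, CIP2A, CAV1, RASD1 and AIFM1 have no match either. Among the 9 not called were PDPK1, ERBB2, KLF5, CBX7, HOXB3, PTPN4, SHOX2 and CADM1, with log2 fold changes from −0.20 (HOXB3) to 1.04 (CADM1, at 0.357 and 0.736 CPM on average). Of the reported targets with an 8mer, MTDH fell, and PTPN4 (0.18) and SHOX2 (0.28) were not called.

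Genes of DNA replication and mitosis fell nearly without exception. DNA replication depends on a helicase loaded before S phase, on polymerases and on nucleotide supply, and all 36 listed genes of these steps fell, 28 of them at least 2-fold, with a median of −1.24. MCM5, a subunit of that helicase, fell 3.61-fold, from 77.8 and 79.1 to 20.6 and 22.9 CPM, and MCM3, another subunit, fell 2.81-fold, from 149 and 149 to 53.6 and 52.6 CPM. MCM7 went from 168 and 174 to 76.1 and 75.9 CPM, and TK1, the thymidine kinase of S phase, from 159.9 and 160.2 to 59.0 and 60.9 CPM. In all 4 of these genes both miR-375 libraries were below both controls, beside 66.8% of all genes tested without overlap in either direction. Across the list the log2 fold changes ran from −1.88 for CDC6, the loading factor, to −0.46 for POLE, a leading-strand polymerase gene, both named for their place at the ends. The summed level of the 36 genes was 2321 and 2334 CPM in the controls and 1051 and 1044 with miR-375. In bulk RNA, fewer dividing cells and less of these RNAs per cell cannot be told apart.

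Of 37 genes of mitosis and cytokinesis 36 fell, 32 of them at least 2-fold, with a median of −1.20. ANLN, a scaffold of the contractile ring, fell 4.46-fold, from 262 and 264 to 62.2 and 55.8 CPM. The mitotic kinase gene CDK1 fell 2.53-fold (226 and 222 to 88.3 and 89.0 CPM), BIRC5, a subunit of the chromosomal passenger complex, 2.64-fold (178 and 186 to 69.7 and 68.0 CPM), and the topoisomerase gene TOP2A 2.63-fold (274 and 277 to 102 and 107 CPM). The member not called, NUSAP1, is counted at only 0.218 and 0.475 CPM on average. Regulators of entry into S phase were split: of 25 tested, 13 fell and 5 rose (median −0.21). CDK2, the partner kinase of cyclin E, fell 2.76-fold (47.3 and 49.3 to 16.7 and 18.3 CPM), SKP2, which targets a CDK inhibitor for destruction, 2.30-fold (76.5 and 78.1 to 33.3 and 34 CPM), CDK4 1.85-fold and CCND1, cyclin D1, 1.82-fold (1277 and 1299 to 713 and 698 CPM). The 5 that rose were the inhibitor genes CDKN1B (log2 fold change 0.8), CDKN1C (0.43), CDKN2C (0.26) and CDKN2A (0.25), and the kinase gene CDK6 (0.22). RB1 (0.01) and CDKN1A (0.02) were not called.

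Interferon-stimulated genes rose. These genes encode antiviral proteins and are switched on by STAT and IRF factors after interferon or sensing of foreign nucleic acid. Of 41 tested 34 rose, 13 of them at least 2-fold, and 1 fell, with a median of 0.59. BST2, which tethers budding viruses, rose 8.55-fold, from 21.0 and 22.2 to 184 and 185 CPM (log2 fold change 3.10 ± 0.064, edgeR adjusted p = 3.7e-30). IFI6 rose 4.01-fold, from 306 and 319.5 to 1291 and 1219 CPM, and IFITM1, a restriction factor of viral entry, 3.70-fold, from 47.2 and 47.3 to 172 and 177 CPM. ISG15, a ubiquitin-like modifier, rose 2.12-fold (312 and 310.5 to 651 and 666 CPM). In these 4 genes both miR-375 libraries stood above both controls, a separation that 66.8% of all genes tested had in either direction. The gene that fell was ISG20, an exonuclease gene, at 139.9 and 142 CPM in the controls and 65.1 and 60.4 CPM with miR-375. IFIT3 (0.15), IRF1 (−0.13), GBP1 (0.34), CMPK2, HERC5 and SAMD9 were not called.

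Antigen presentation by MHC class I moved the same way, with 12 of 17 genes higher and 2 lower (median 0.52). HLA-C rose 2.40-fold (273 and 277 to 661 and 658 CPM), HLA-B 2.19-fold (127 and 129.7 to 277 and 285 CPM) and B2M, their light chain, 1.93-fold (893 and 884 to 1718 and 1717 CPM). The HLA genes are near-identical in parts, so that the split of reads between them is uncertain. PSMB10 (−0.72), an immunoproteasome gene, and TAP2 (−0.25), a peptide transporter gene, fell, while TAP1 rose (0.51).

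Inflammatory genes of the NF-kB pathway rose in 22 of 34 cases and fell in 2 (median 0.55). PTGS2, the inducible cyclooxygenase of prostaglandin synthesis, rose 15.0-fold, from 20.0 and 20.9 to 302 and 313 CPM (log2 fold change 3.91 ± 0.062, edgeR adjusted p = 1.6e-33). The neutrophil chemokine genes CXCL8 and CXCL5 rose 2.40-fold (305 and 302 to 729 and 729 CPM) and 2.27-fold (98.4 and 104 to 235 and 224 CPM). IL6 rose 3.74-fold from a low level (2.92 and 3.06 to 11.4 and 11 CPM). LIF, a cytokine of the same family, fell 1.95-fold (515 and 518 to 267 and 262 CPM), as did the inhibitor gene NFKBIE (−0.27). The NF-kB subunit genes RELA (−0.03) and NFKB1 (−0.06) were not called, and NFKB2 rose by 0.14.

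The 3 largest rises among genes of at least 5 CPM were in genes of the acute-phase response and complement, proteins that liver cells secrete in inflammation. Of 29 listed genes 23 could be tested, 11 rose and 4 fell, and the median was 1.06. It was 1.60 without the first control library and 0.86 without the second. It was 0.88 without the first miR-375 library and 0.71 without the second. FGB, the fibrinogen beta chain, went from 0.449 and 0.467 to 73.6 and 73.4 CPM (log2 fold change 7.32 ± 0.16). CP, the copper carrier ceruloplasmin, went from 0.824 and 0.675 to 103 and 101 CPM (7.08 ± 0.14), and C3, the central complement component, from 8.64 and 7.73 to 176 and 184 CPM (4.46 ± 0.077). In all 3 the control libraries were far below the miR-375 libraries. FGG, the fibrinogen gamma chain, rose by 5.48 to a mean of 3.54 CPM, whereas FGA, the alpha chain, had 0 counts in both groups. C1R, a protease that starts the classical complement pathway, rose 3.11-fold (33.2 and 35.2 to 105 and 108 CPM). The 4 that fell were C4B (−2.82, at a mean of 0.354 CPM or less), the complement inhibitor genes CD59 (−0.93) and CD46 (−0.23), and SERPINA1 (−0.62). C4B has a near-identical copy, C4A, and is uncertain.

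STAT3 signalling, which IL6 and LIF use, showed no common direction. Of 16 genes 7 fell and 5 rose (median −0.26, and −0.16 without the second control library). The feedback gene SOCS2 fell 2.18-fold (52.7 and 57.8 to 25.7 and 24.9 CPM), the receptor genes LIFR and IL6R fell 1.95-fold and 1.71-fold, and the kinase gene PIM1 rose 2.84-fold (49.0 and 52.3 to 139.8 and 148 CPM). STAT3 itself was at most 0.026 CPM on average in a group, which is 1 count or fewer a library.

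**Figure D3:**
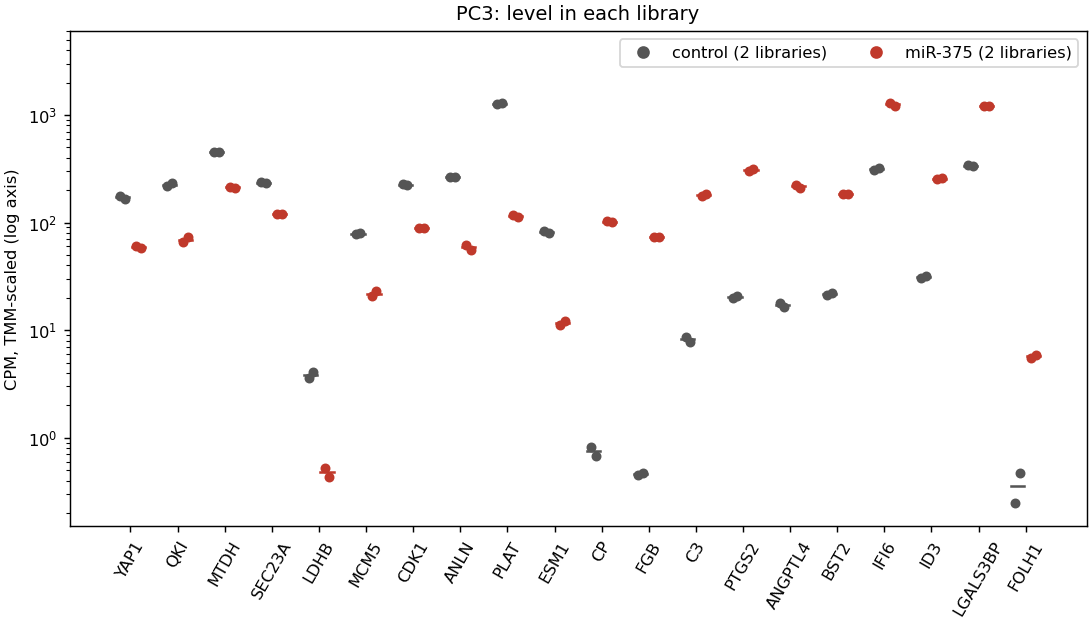
Level of 20 genes in each of the 4 PC3 libraries, in TMM-scaled CPM on a log axis, with control libraries in grey and miR-375 libraries in red. Each point is a library and each short line a group mean. In none of the 20 genes do the groups overlap, as in 66.8% of all genes tested.

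Large changes were also found outside the listed pathways. Among the 12 largest rises at 5 CPM or more were ANGPTL4, a secreted inhibitor of lipoprotein lipase (17.7 and 16.5 to 223 and 211 CPM, 12.7-fold), SHH, the hedgehog ligand (2.82 and 3.11 to 37.2 and 38.9 CPM, 12.8-fold), and BMP2, a bone morphogenetic protein (1.05 and 0.779 to 12.9 and 16.1 CPM, 15.8-fold). Also among the 12 were the cytochrome P450 gene CYP1B1 (12.3-fold, 1.45 and 1.25 to 15.7 and 17.4 CPM), the fibroblast growth factor gene FGF7 (11.9-fold, 0.3 and 0.545 to 4.67 and 5.46 CPM), the gastric mucin gene MUC6 (10.1-fold, 1.12 and 0.882 to 8.72 and 11.6 CPM), FOLH1, PTGS2, FGB, CP and C3. The groups did not overlap for any of them, which the rule for naming required. ID3, an inhibitor of helix-loop-helix factors and a known target of bone morphogenetic proteins, rose 8.14-fold (30.4 and 32.1 to 251 and 257 CPM), and the secreted glycoprotein gene LGALS3BP 3.54-fold (340.1 and 338 to 1201 and 1199.7 CPM). Both were among the 8 genes of at least 50 CPM with the smallest adjusted p-values for a rise.

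The steepest fall of an abundant gene was that of PLAT, tissue plasminogen activator, from 1265 and 1283 to 117 and 113 CPM (log2 fold change −3.47 ± 0.038, edgeR adjusted p = 9.5e-39). ESM1, a secreted proteoglycan of angiogenic endothelium, fell 7.0-fold (82.8 and 80.0 to 11.1 and 12.2 CPM), the GABA receptor gene GABBR2 6.67-fold (29 and 28.9 to 4.03 and 4.65 CPM) and FGF1 5.48-fold (26.9 and 26.6 to 5.31 and 4.44 CPM). In each of these both miR-375 libraries were below both controls, which the rule for naming required. The trefoil peptide gene TFF2 (7.0-fold), the cathepsin gene CTSW (7.49-fold), TNS1, a focal adhesion gene (5.53-fold), the centriole gene POC1B (4.5-fold), PHACTR3 (4.28-fold), the hair keratin gene KRT37 (4.02-fold) and SH3PXD2A-AS1 (4.67-fold) each fell from under 50 CPM, and ANLN completed the 12. SH3PXD2A-AS1 is an antisense transcript and is uncertain for that reason. Very abundant genes with small adjusted p-values were HMGA1, an architectural chromatin protein (3136 and 3172 to 1212 and 1235 CPM, 2.58-fold lower), the hair keratin gene KRT81 (2932 and 2935 to 1084 and 1071 CPM, 2.72-fold), YWHAZ, a 14-3-3 adaptor (2006 and 1995 to 744 and 751 CPM, 2.68-fold), the hyaluronan synthase gene HAS3 (1621 and 1631 to 619.6 and 594 CPM, 2.68-fold) and FAM43A (451 and 455 to 138 and 134 CPM, 3.33-fold).

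Genes that define epithelial and mesenchymal states changed in both directions. PC3 cells express little E-cadherin, the adhesion molecule of epithelial junctions, and its gene CDH1 rose 4.27-fold, from 4.19 and 3.50 to 17.7 and 15.2 CPM. EPCAM, an epithelial adhesion gene, rose 2.66-fold (9.39 and 8.46 to 23.1 and 24.3 CPM). Of 30 epithelial genes 12 rose and 5 fell (median 0.56, but 0.29 without the second control library and 0.12 without the second miR-375 library), and those that fell were CLDN4, a tight junction claudin (849.9 and 858 to 352 and 338 CPM, 2.48-fold), the simple-epithelium keratin genes KRT8 (253 and 245 to 158 and 152 CPM, 1.61-fold), KRT18 (−0.23) and KRT19 (−1.0), and the junction adaptor gene TJP1 (−0.46). The genes that fell were among the abundant ones of the list, whose summed level went from 2820.0 and 2836 to 1672 and 1651 CPM. The splicing regulator ESRP1 and the transcription factors OVOL1, OVOL2, GRHL2 and GRHL3, which accompany epithelial differentiation, were close to 0, with the highest mean, that of GRHL3 with miR-375, at 0.261 CPM.

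Of 29 mesenchymal genes 10 rose and 9 fell, with a median within 0.01 of 0 that took either sign across alternatives. CDH11, a mesenchymal cadherin, fell 2.37-fold (471 and 466 to 200.3 and 195 CPM) and FSTL1 1.4-fold, while COL1A1, a collagen chain, rose 2.69-fold (136 and 142 to 384 and 362 CPM). The EMT transcription factor genes split: SNAI2 (−1.38) and ZEB1 (−0.39) fell, and SNAI1 (1.18), ZEB2 (1.04) and TWIST1 (0.35) rose. Vimentin, VIM, fell (−0.68), and N-cadherin, CDH2, was not called (0.18).

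Among regulators of splicing and RNA binding in epithelium 6 of 15 fell and 3 rose (median −0.12, and −0.08 without the second control library). Beside QKI, the genes MBNL1 (289.6 and 283 to 157 and 162 CPM, 1.80-fold), HNRNPM (353 and 359 to 237 and 228 CPM, 1.53-fold) and SRSF1 (98.9 and 93.1 to 66.9 and 66.7 CPM, 1.44-fold) fell. The 3 that rose were NOVA2 (1.14), RBM47 (1.03) and MBNL2 (0.36). Exon usage was not examined, since the table gives a single count per gene.

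Genes for the contact of the cell with its matrix changed in both directions. As background, 30.8% of the 5267 highest genes rose and 41.9% fell, and from 7.95 to 45.6 CPM 27.8% rose and 29.7% fell. Of 22 integrin and laminin genes 10 fell and 8 rose, and the median of −0.07 became 0.00 under total-count scaling. ITGA6, which pairs with ITGB4 in hemidesmosomes, fell 2.84-fold (637 and 627 to 219.6 and 226 CPM), LAMB3, a chain of their ligand laminin-332, 1.96-fold (758 and 790.2 to 401 and 390.5 CPM) and ITGA3 1.5-fold (1928 and 1906 to 1264 and 1288 CPM). The fibronectin receptor gene ITGA5 rose 1.70-fold (293 and 293 to 502 and 495 CPM). Of 26 genes of matrix proteases and their inhibitors 10 rose and 8 fell, with a median of 0.00 that took the other sign under other settings, down to −0.10 without the second miR-375 library. Beside PLAT, the urokinase gene PLAU fell 1.97-fold (739 and 754 to 378 and 379.9 CPM), and the protease inhibitor gene SERPINE2 rose 2.90-fold (55.0 and 56.6 to 160.5 and 163 CPM). Among 21 targets of YAP and TAZ, the coactivators restrained by Hippo signalling, 11 fell and 5 rose (median −0.29). CCN2 fell 2.69-fold (75.3 and 79.6 to 27.9 and 29.6 CPM), AXL 2.0-fold (335 and 349 to 171 and 170.5 CPM) and the ectonucleotidase gene NT5E 1.98-fold (309 and 314 to 156 and 159 CPM), and IGFBP3, a binding protein of insulin-like growth factors, rose 2.77-fold (178 and 172 to 482 and 491 CPM). ARHGEF17, F3, LATS2 and NUAK2 completed those that rose. The coat of caveolae, small pits of the plasma membrane, was represented by 6 tested genes, of which CAV1 (342 and 338 to 178 and 172 CPM), CAV2 (80.4 and 78.8 to 53.9 and 48.9 CPM) and PACSIN2 (92.4 and 93.2 to 62.6 and 64.5 CPM) fell and EHD2 rose (4.52 and 4.44 to 8.03 and 8.42 CPM). CAVIN1 had 0 counts in both PC3 groups and was tested only because of its LNCaP counts. The median was −0.37 with it and −0.57 in a fit of the PC3 libraries alone. CAVIN2 was not called (−0.19).

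Growth factor signalling genes changed without a common direction. Of 23 AP-1 and immediate early genes 11 rose and 7 fell (median 0.42). FOSL1, a Fos family gene, fell 2.45-fold (718 and 726 to 296 and 293 CPM), and JUN 1.55-fold (199 and 200.4 to 127 and 131 CPM). MYC, the transcription factor gene, rose 1.75-fold (86.6 and 94.8 to 164 and 154 CPM), and IER3 1.98-fold (138 and 125 to 260.1 and 261 CPM). Of 16 genes of ERK feedback 8 fell and 3 rose (median −0.19). SPRED1, an inhibitor of Ras signalling, fell 1.95-fold (311 and 319 to 163 and 161 CPM), EPHA2, an ephrin receptor, 1.87-fold (996 and 1003 to 533 and 537 CPM), and SPRY4 rose 1.63-fold (431 and 433 to 704 and 704 CPM), as did IER3 and ETV1 (0.30). Of 12 EGF receptors and ligands 6 rose and 3 fell (median 0.28). EGFR fell 1.35-fold (235 and 237 to 178 and 172 CPM), whereas ERBB3, a sister receptor, rose 2.11-fold (17.3 and 16.2 to 33.9 and 36.8 CPM), as did the ligand genes EGF (2.30-fold, 7.56 and 7.86 to 17.9 and 17.7 CPM) and TGFA (1.87-fold, 23.0 and 22.5 to 41.6 and 43.7 CPM). NRG2 (−0.85) and HBEGF (−0.53) were the ligand genes that fell.

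Prostate lineage genes gave no single picture. Of 14 basal prostate genes 8 fell and 3 rose (median −0.77, and −0.51 without the second control library). KRT15, a basal keratin, fell 3.29-fold (23.4 and 22 to 7.43 and 6.36 CPM), the calcium-binding gene S100A2 2.53-fold (60.8 and 57.8 to 24.6 and 22.4 CPM) and ITGB4 1.49-fold (748 and 735 to 488 and 508 CPM). The defining basal keratins KRT5 and KRT14 were near 0, with the highest mean, that of KRT5 with miR-375, at 0.119 CPM. The 3 that rose were TP63 (0.256 to 1.26 CPM on average), NGFR (0.33 to 2.24) and DST (219.9 to 284). Of 20 luminal prostate genes 8 rose and 5 fell (median 0.07, and 0.03 without the second miR-375 library, with KLK2 and KLK3 in it as 0). FOXA1, a pioneer factor of luminal cells, rose 2.56-fold (84.9 and 90.6 to 215 and 234 CPM), NDRG1 1.98-fold (1221 and 1261 to 2458 and 2459.7 CPM), and FOLH1, prostate-specific membrane antigen, 15.8-fold to a level that stayed low (0.25 and 0.467 to 5.45 and 5.93 CPM). Among the 12 genes listed as marking LNCaP, 5 rose and 2 fell (median 0.07, and 0.12 without the second library of either group), with STEAP2 (1.4-fold) and SLC45A3 (1.39-fold) higher and TMPRSS2 (−0.39) lower. Of the 14 genes marking PC3, 12 fell and none rose (median −0.58), and their summed level went from 4480.1 and 4468 to 2951 and 2932 CPM.

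Markers of other cell types were low or mixed. Of 19 neuroendocrine genes 11 were tested, 3 rose and 2 fell (median −0.09, but 0.14 without the first miR-375 library), and the defining genes CHGA, INSM1 and NEUROD1 had 2 counts or fewer in each PC3 library. SYP, a synaptic vesicle gene, rose from 0.674 and 0.882 to 2.45 and 2.44 CPM and ENO2 1.34-fold (225 and 227 to 308 and 297 CPM). UCHL1 had 0 counts in the controls and 0.0476 and 0.19 CPM with miR-375, and SCG5 went from 3.62 and 4.20 to 2.41 and 1.38 CPM, while SNAP25 fell from a mean of 0.762 CPM. UCHL1 lost its call without either control library (edgeR adjusted p = 0.07 and 0.065) or the second miR-375 library (0.18), and SCG5 without the second library of either group (0.087 and 0.19). Of 9 fibroblast markers tested 4 rose and 2 fell (median 0.32): COL1A1, LUM (1.52), PDGFRB (1.62) and DCN, at 0 counts in the controls and 0.333 and 0.475 CPM with miR-375, rose, and PDGFRA (30.6 and 36.9 to 22.4 and 23.9 CPM) and PDPN (28.3 and 30.1 to 19.7 and 20.2 CPM) fell. Of 7 endothelial markers 3 fell, KDR, the VEGF receptor (322 and 323 to 173 and 173 CPM, 1.87-fold), PECAM1 (1.39-fold) and TIE1 (1.33-fold), while CDH5 and VWF, which define endothelium, were near 0. The median of the 7 was −0.48, and −0.90 without the first library of either group. TIE1 lost its call without any single PC3 library (edgeR adjusted p from 0.095 to 0.17). None of 4 leukocyte markers tested was called (median 0.65, but 1.71 without the first control library and −0.05 without the second), and their summed level was from 1.27 to 2.71 CPM per library.

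Metabolic genes changed in both directions. Of 30 genes of hypoxia and glycolysis 17 rose and 8 fell (median 0.20). ADM, a vasodilator peptide induced by low oxygen, rose 4.07-fold (18.9 and 19.9 to 78.8 and 79.1 CPM), NDRG1 1.98-fold and the aldolase gene ALDOC 1.94-fold (38.6 and 35.6 to 69.8 and 73.9 CPM), while the very abundant glycolytic genes ENO1 (−0.24), GAPDH (−0.27) and LDHA (−0.17) fell slightly. Of 18 genes of fatty acid synthesis 10 fell and 6 rose (median −0.20). ACSL3, which activates fatty acids, fell 2.67-fold (241 and 247 to 92.8 and 89.8 CPM) and ACSS2 1.74-fold (89.8 and 90.1 to 53.7 and 49.5 CPM), and the desaturase genes SCD (1.75-fold, 262 and 262 to 464 and 453 CPM) and FADS2 (1.52-fold, 249 and 242 to 369 and 375 CPM) rose. Of 24 genes of cholesterol biosynthesis 9 rose and 7 fell, and the median of −0.07 became 0.01 with total-count scaling and 0.00 without the second control library. Genes of the late steps, TM7SF2 (46.9 and 45.8 to 83.9 and 84.1 CPM) and DHCR7 (80.5 and 80.1 to 117 and 121 CPM), rose, and NSDHL fell (44.5 and 48.7 to 30.1 and 30.4 CPM).

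All 13 mitochondrially encoded genes had lower levels with miR-375, and 12 of them fell (median −0.41). MT-ATP8, a subunit of the ATP synthase, fell 2.05-fold (356 and 344 to 177 and 164 CPM), the oxidase subunit MT-CO3 1.47-fold (1923 and 1946 to 1322 and 1309 CPM), MT-CYB 1.39-fold (1938 and 1829 to 1385 and 1332 CPM) and MT-CO2 1.28-fold (2827 and 2718 to 2209.8 and 2116 CPM). MT-ND3 was not called (−0.07). Their summed level was 31696 and 29482 CPM in the controls and 23585 and 23148 CPM with miR-375. Of 36 nuclear genes of the respiratory chain 17 fell and 6 rose, with a median of −0.06 that became 0.01 under total-count scaling. COX7C (1.53-fold, 329.9 and 339 to 226 and 212 CPM), NDUFA4 (1.4-fold), ATP5F1A (1.37-fold) and NDUFS1 (1.37-fold) were among those that fell.

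Of 52 cytosolic ribosomal protein genes 30 fell and 10 rose, with a median of −0.09 that moved to −0.02 under total-count scaling. The 5267 most abundant genes, of which 30.8% rose and 41.9% fell, are the background for so abundant a family. RPLP1 fell 1.41-fold (592 and 595 to 437 and 405 CPM), RPS19 1.38-fold (351 and 353 to 263 and 245 CPM) and RPLP0 1.29-fold (1903 and 1907 to 1491 and 1453 CPM), and RPL11 rose 1.46-fold (326 and 323 to 476 and 471 CPM). These genes have many processed pseudogenes, among which reads may be split.

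Stress pathways also had members in both directions. Of 24 endoplasmic reticulum chaperone genes 13 rose and 4 fell (median 0.15): ERN1, a sensor of unfolded proteins, rose 1.88-fold (81.3 and 84.4 to 158 and 153 CPM), the disulfide isomerase genes P4HB 1.45-fold (928 and 931 to 1359.8 and 1330.2 CPM) and PDIA3 1.4-fold (693 and 714 to 991 and 981 CPM), and CALR 1.32-fold. HERPUD1 (−0.72), PDIA4 (−0.39), HSP90B1 (−0.19) and CANX (−0.18) fell. Of 23 genes of the integrated stress response, in which ATF4 reacts to amino acid shortage and other strains, 12 rose and 5 fell (median 0.16). DDIT4, an inhibitor of mTORC1, rose 3.26-fold (30.5 and 29.7 to 96.0 and 100.3 CPM) and the amino acid transporter gene SLC7A5 2.34-fold (175 and 176 to 417 and 403 CPM), and the serine pathway genes SHMT2 (211 and 216 to 152 and 144 CPM) and PHGDH (105 and 109.8 to 79.6 and 79.4 CPM) fell. ATF4 was not called (187 and 189 CPM in the controls, 186 and 189 CPM with miR-375). Of 26 p53 targets 11 rose and 7 fell (median 0.08, and 0.05 without the first library of either group), in a line known to lack p53. GDF15, a stress cytokine, rose 3.50-fold (34.2 and 37.1 to 127 and 122 CPM) and TP53INP1 1.51-fold (26.3 and 27.1 to 40.3 and 40.4 CPM), and AEN (2.09-fold, 87.1 and 85.8 to 42.4 and 40.2 CPM) and GADD45A (1.61-fold, 129.8 and 122 to 79.6 and 77.4 CPM) fell. Of 31 autophagy and lysosome genes 18 rose and 7 fell (median 0.27), with the protease gene CTSD (93.8 and 89.4 to 176 and 167 CPM), GABARAPL1 (51.0 and 50.5 to 97.7 and 94.2 CPM) and the cargo receptor gene SQSTM1 (354 and 346 to 499 and 518 CPM) higher and ATG16L1, which attaches LC3 to membranes, lower (131 and 131 to 65.7 and 65.0 CPM).

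Of 22 genes of the COPII and COPI vesicle coats, 21 of them at 5 CPM or more, 4 fell and 8 rose (median 0.07, and 0.05 without any single LNCaP library). As background, 29.7% of all genes from 7.95 to 45.6 CPM fell and 27.8% rose, and of the 5267 highest 41.9% fell and 30.8% rose. Beside SEC23A, the genes COPG2 (26 and 26.5 to 16.3 and 14.7 CPM), SAR1A, the GTPase that starts COPII assembly (565 and 552 to 410.1 and 399.6 CPM), and SEC23B (−0.28) fell, and ARCN1 rose (328 and 326 to 391 and 401 CPM), the largest of the 8 rises, by 0.28 on the log2 scale. Of 21 genes of the microRNA machinery 10 fell and 6 rose, and the median of −0.06 became 0.02 under total-count scaling and −0.14 without the first control library. TENT2, a poly(A) polymerase acting on small RNAs (37.5 and 35.4 to 19.3 and 21.3 CPM), TARBP2, a partner of Dicer (40.1 and 38.7 to 23.7 and 26 CPM), and RAN, the GTPase of nuclear export (773 and 806 to 605 and 602 CPM), fell, and the RNA-editing enzyme gene ADAR rose (532 and 524 to 711 and 709.5 CPM). AGO2 (0.08) and DICER1 (0.04) were not called.

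**Figure D4:**
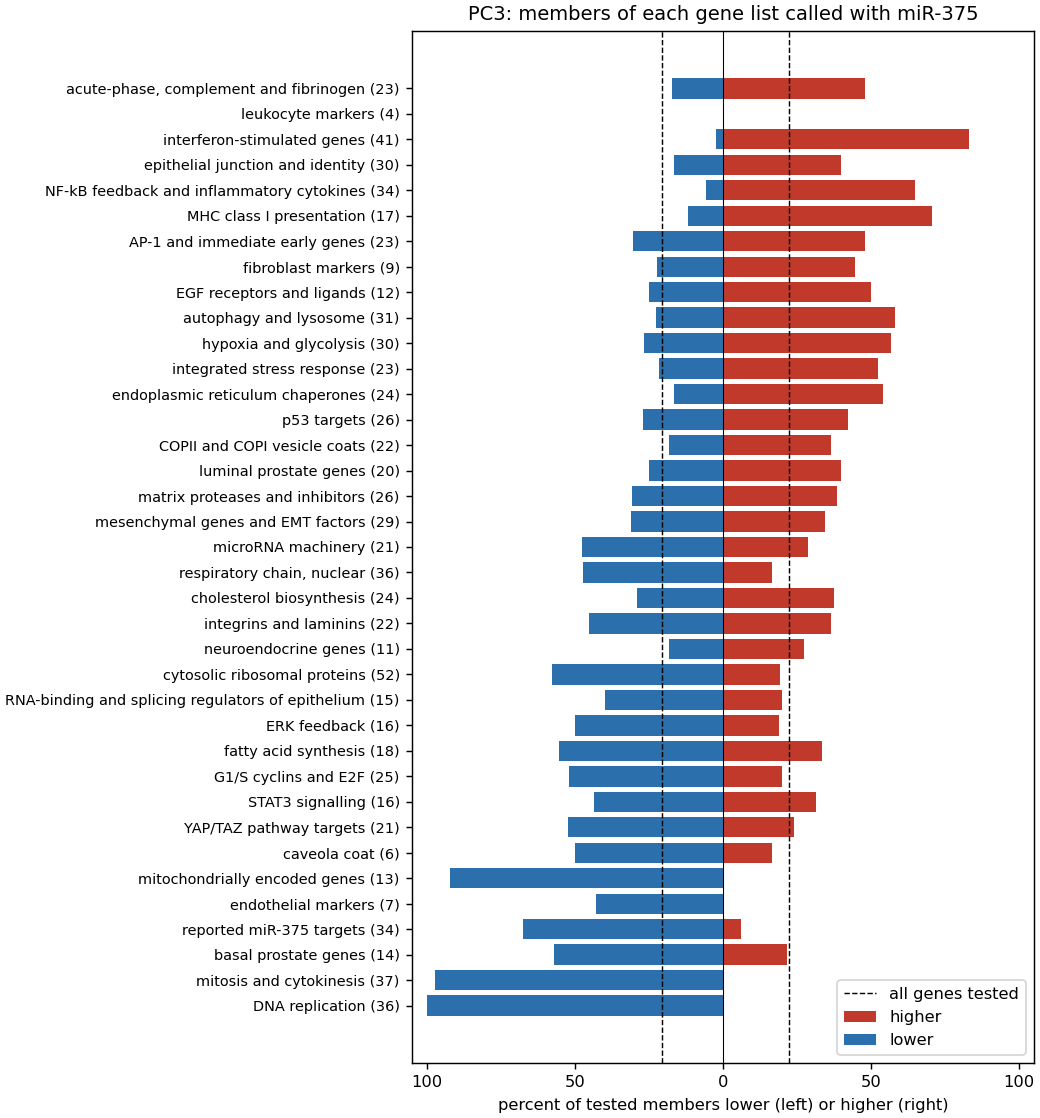
Percent of the tested members of 37 gene lists that fell (blue, to the left) or rose (red, to the right) in PC3 with miR-375, ordered by the median log2 fold change, with the number tested in parentheses. Dashed lines mark the shares over all tested genes, 20.8% lower and 22.2% higher. The bars of DNA replication and mitosis cover all 36 and 36 of 37 members on the left, and that of interferon-stimulated genes is the longest on the right.

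The change in PC3 differed from that in LNCaP for 5589 genes (26.5% of those tested, by the interaction term of the same fit): it was more positive in PC3 for 3286 and more negative for 2303. Of the 9059 genes called in PC3, 4616 were also called in LNCaP, 3710 in the same direction. The division genes fell in both lines, with medians of −1.24 in PC3 and −1.35 in LNCaP for DNA replication, where 15 of 36 genes passed the test of the difference, and −1.20 and −0.96 for mitosis, where 18 of 37 did. The reported targets had medians of −0.54 and −0.66, and 17 of 34 differed. YAP1 fell more in PC3 (log2 fold change −1.53) than in LNCaP (−1.04, edgeR interaction adjusted p = 6.8e-07), and so did QKI (−1.70 and −0.66, adjusted p = 2.1e-10). MTDH fell less in PC3 (−1.09 and −1.49, adjusted p = 2.6e-07), as did SEC23A (−0.99 and −1.31, adjusted p = 4.3e-04). The medians of the seed classes in LNCaP were −0.11 with a 7mer-A1, −0.10 with an 8mer, −0.10 with a 7mer-m8 and 0 without a match.

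In several gene groups many members differed between the lines. All 13 mitochondrially encoded genes differed between the lines, with medians of −0.41 in PC3 and 0.08 in LNCaP, as did 20 of 24 chaperone genes (0.15 and −0.10). Of the acute-phase and complement genes 12 of 23 differed (1.06 and −0.05). CP, at 2.39 CPM in the LNCaP controls and 2.13 with miR-375 on average, differed by 7.25 ± 0.28 on the log2 scale, and C3 by 4.56 ± 0.45. FGB had 0 counts in LNCaP, and its change there is not defined. Of the interferon-stimulated genes 23 of 41 differed, BST2 by 2.53 and IFI6 by 0.81, although the LNCaP median, 0.41, was also above 0. Among genes well expressed in both lines, ID3 rose in PC3 and fell in LNCaP (means of 94.5 and 81.2 CPM there, difference 3.24 ± 0.073). MYC rose in PC3 and fell in LNCaP (349 and 185 CPM, difference 1.72 ± 0.061), and so did FOXA1 (605 and 547, difference 1.5 ± 0.056). CLDN4 (328 and 379.7, difference −1.52 ± 0.048) and FAM43A (63.9 and 87.8, difference −2.19 ± 0.058) fell in PC3 and rose in LNCaP. HMGA1 fell in both, by 1.37 in PC3 and 0.11 in LNCaP.

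**Figure D5:**
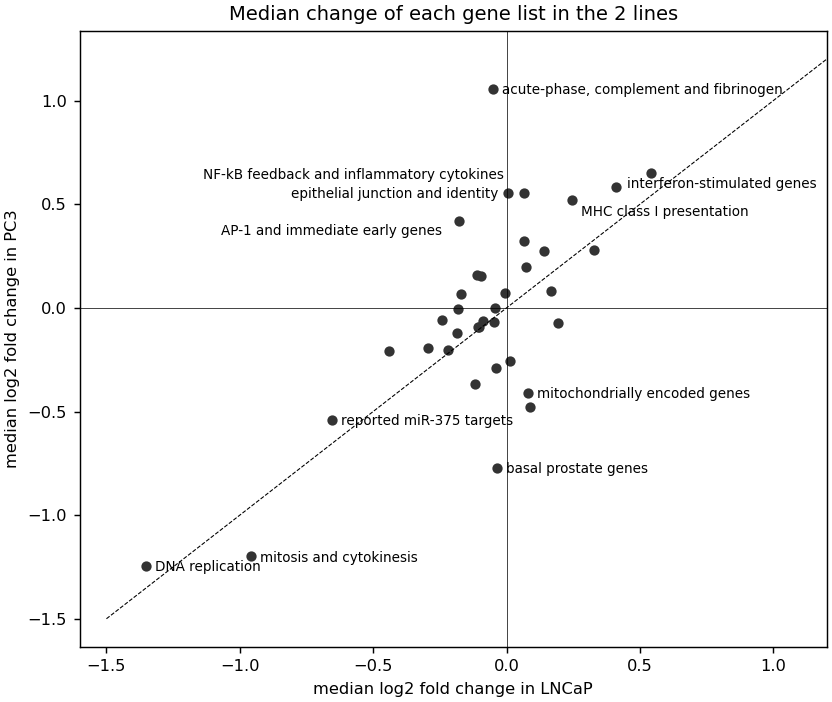
Median log2 fold change of each of 37 gene lists in PC3 (vertical axis) against that in LNCaP (horizontal axis), 1 point per list, with the dashed line where both are equal. DNA replication, mitosis and reported targets lie low in both lines, and the acute-phase list lies at 1.06 in PC3 and −0.05 in LNCaP.

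At the edge of detection, 1 gene had no counts in both PC3 controls and at least 20 in both miR-375 libraries, and 1 gene the reverse. GPRC6A, an amino acid receptor gene, had 41 counts in each miR-375 library, at least 13.5-fold higher than the limit of 3 counts a library. SPDYE16, of a gene family with many near-identical copies and thus uncertain, had 27 and 45 counts in the controls and none with miR-375, at least 12.2-fold lower.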

How the data were processed

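Poly(A) RNA was made into dUTP-marked stranded libraries and read as paired ends, per the labels' protocols. The authors deposited whole-number counts per gene in a single table, not normalized. The hg38 build was used along with DESeq2, featureCounts, STAR 2.7.1a and fastp, per the submitters' processing notes, while annotation and strand setting were not stated. Of counts from 1 to 20 in the PC3 libraries, 68.1% to 70.3% were even, and whether a count is a read or a pair is unknown. Of 60625 lines 3 were broken (279 counts) and left out, ANK2 among them, 60622 were used, and 23834 of these were at 0 in all libraries.

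Genes passing filterByExpr (21066) were fitted by edgeR 4.0.16 in R 4.3.3 (TMM factors from 0.957 to 1.01 in PC3, robust quasi-likelihood test) with 4 groups and 4 residual degrees of freedom, and called at an adjusted p under 0.05. Replicates differed (chi-square per degree of freedom 3.33 and 3.37 against counting noise), so none is a repeat deposit. The chi-square takes counts as independent, and it overstates the excess if both reads of a pair were counted. The limit of 3 counts makes the same assumption. Tested on simulated counts for the PC3 comparison (21065 genes), the fit called 88 of 100 genes changed 1.5-fold and 98 of 100 changed 2-fold, with 6 false calls. The changed genes were few, moved up or down at random, and none had a low control level. The recovered shares therefore do not describe genes of low level. Scaling under a change as broad as the 43.0% of genes called here was not simulated. For the seed classes the longest GENCODE 29 3′ UTR of each coding gene was searched on its own strand. A promoter motif search was void, since the table matched 44.0% of symbols and 80% were needed.

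The members and lists were chosen with earlier results of these data known. Named genes were the 12 largest rises and falls among called genes with at least 5 CPM in a group and no overlap, up to 4 called members per list with the smallest adjusted p and all called reported targets, the 8 smallest adjusted p each way at 50 CPM or more, the 6 largest interaction estimates each way, and genes at 0 in 1 group. Other genes are named as members that were not called, as the members behind a small count, as ends of a range or as known regulators of their list, chosen after their values were seen. Some named genes are not reported here. Duplicated symbols kept the line with most counts. Alternatives were total-count scaling, no filter, PC3 libraries alone, a replicate block, halved counts, limma-voom (limma 3.58.1), DESeq2 1.42.0 and leaving out each library. Splits by UTR length and GC and the 5p strand were added after seeing the data. The SEs come from the edgeR fit and hold its estimate of the spread between libraries. Limits for a count of 0 cover counting error only.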

Additional observations from a re-analysis of the deposited data

Results flagged for a closer look

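The response to miR-375 differed between PC3 and LNCaP for 5589 genes by the interaction term of edgeR's quasi-likelihood fit. Among genes called in PC3, those with the most extreme differences mostly rest on LNCaP counts near 0, where the fitted value depends on the prior count and is no bound. An exception was CP, with a difference (PC3 change minus LNCaP change) of 7.25 and LNCaP means of 2.39 and 2.13 CPM. The differences were 8.88 for IL6, 8.49 for the transporter gene ABCC3, 8.34 for the DNA sensor gene IFI16, 7.52 for ST6GAL2 and 7.35 for SLITRK4. In LNCaP these 5 genes had means of 0.414, 0.579, 0.613, 0.0875 and 0.353 CPM in the controls and 0 counts with miR-375. In PC3, ABCC3 rose from 104 and 103 to 208 and 217 CPM, IFI16 from 50.3 and 56.3 to 88.9 and 93.8 CPM, ST6GAL2 from 13.9 and 15.4 to 99.0 and 94.2 CPM and SLITRK4 from 8.09 and 9.19 to 14.1 and 11.9 CPM. SLITRK4 lost its PC3 call without the first miR-375 library (edgeR adjusted p = 0.084).

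The most negative differences were −6.98 for AREG, an EGF receptor ligand, −6.95 for TFF2, −6.91 for the cystatin gene CST4, −6.29 for PDLIM4, −6.22 for TMEM200C and −6.13 for SLC35D1. All 6 had 0 counts in the LNCaP controls and means of 0.534, 0.0554, 0.11, 0.136, 0.137 and 0.137 CPM with miR-375. In PC3, CST4 fell from 79.7 and 80.8 to 22.9 and 22.8 CPM, PDLIM4 from 141 and 148 to 78.2 and 79.1 CPM, TMEM200C from 39.9 and 44.1 to 21.7 and 26.1 CPM and SLC35D1 from 27.4 and 27.4 to 17.1 and 16.2 CPM. AREG rose in PC3 (18.4 and 19.2 to 24.0 and 24.7 CPM), a call that was lost without the first control library (edgeR adjusted p = 0.063) or the second miR-375 library (0.063).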

How the results depend on the processing

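The counts of genes that rose or fell in PC3, at any size and at 2-fold, and of genes whose change differed between lines stayed within 1.5 times under all alternatives tried. Leaving out 1 library gave from 3928 to 4390 rises, 3830 to 4664 falls, 1277 to 1356 rises and 724 to 794 falls of at least 2-fold, and 4735 to 4981 differences between lines; a lone library was then assumed to vary like the other groups. Total-count scaling moved the median change of all genes by 0.0762 (log2) and gave 5672 rises and 3602 falls. DESeq2 gave 3721 and 3954, and the calls of 7645 of the 9059 genes kept their direction there. Shared replicate numbers did not pair the PC3 libraries (correlation of same-numbered deviations 0.0101). A replicate block gave 4505 rises and 4272 falls. Of 192 named genes 7 lost their call under some alternative (AREG, GPHN, SCG5, SLITRK4, SP1, TIE1 and UCHL1) and none reversed. DESeq2 left AREG, GPHN, SCG5 and TIE1 uncalled (adjusted p = 0.07, 0.12, 0.078 and 0.12), the block TIE1 (0.056), the PC3 libraries alone UCHL1 (0.12) and total-count scaling TIE1 (0.10). With 2 libraries a group and genes under 1 CPM resting on few counts, changes smaller than the 0.0762 scaling shift cannot be ordered by direction, medians of gene lists included.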
